A study of Mus musculus with 10 samples.

Results

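A set of 7 genes of the tumour necrosis factor (TNF) superfamily was described in mouse blood neutrophils: the ligand genes Tnf, Ltb, Tnfsf10, Tnfsf13b and Tnfsf14 and the receptor genes Tnfrsf1a and Tnfrsf1b. They were taken by symbol from a table of 54146 genes, and all 7 were found there. RNA was sequenced from CD11b+ Ly-6G+ blood cells of BALB/c nu/nu hosts, an athymic strain that lacks most T cells, 14 days after cells or vehicle were placed in the kidney. Mice received OS5K #1, OS5K #2 or OS5K #3 cells, the 3 derivative lines of the human clear cell renal cell carcinoma line OS-RC-2 (written OS5K_1, OS5K_2 and OS5K_3 in the plots). Other mice received OSPa cells, read here as the parental line, or vehicle only (sham). Each of the 5 groups had 2 libraries, so that there were 6 OS5K, 2 OSPa and 2 sham libraries. The labels do not say that the 2 libraries of a group came from separate animals, so the tests measure the spread between libraries, which may be technical. The hosts lack a normal thymus in every group, sham included, and the tumours are human cells in a mouse.

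The ligands of this family are mostly made as trimers on the cell surface and act on neighbouring cells or, once cut off, at a distance. TNF is cut by ADAM17 and binds the receptor TNFR1, encoded by Tnfrsf1a, which carries a death domain, and TNFR2, encoded by Tnfrsf1b, which has none; both can activate NF-kB. Neutrophils are known to make TNF and the B-cell survival factor BAFF, and to be primed by TNF.

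Tnf (ENSMUSG00000024401, chr17:35199381-35202007, minus strand) and Ltb (ENSMUSG00000024399, chr17:35194439-35196320, plus strand) are neighbours in mm10, with 3060 bases between them. Tnfsf14 (ENSMUSG00000005824) lies on the same chromosome at chr17:57189492-57194189, minus strand. Tnfsf10 (ENSMUSG00000039304) is at chr3:27317028-27342427, plus strand, and Tnfsf13b (ENSMUSG00000031497) at chr8:10006467-10039072, plus strand. Tnfrsf1a (ENSMUSG00000030341) is at chr6:125349362-125362484, plus strand, and Tnfrsf1b (ENSMUSG00000028599) at chr4:145213463-145246870, minus strand. All are protein-coding genes. The genes of the table that overlap a member are Mir6973a within Ltb and Gm44789 within Tnfsf13b, and both are listed at 0 in every library.

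The promoters of the 3 chromosome 17 ligand genes are shown because NF-kB acts downstream of both TNF receptors and each of the 3 holds a match to a kB motif. They are RefSeq sequences of GRCm38.p6, from 250 bases before to 50 bases after the start that RefSeq annotates, read 5′ to 3′ on the gene's strand, with the kB match in capitals. The windows are chr17:35194257-35194556 (plus strand) for Ltb, chr17:35201958-35202257 (minus strand) for Tnf and chr17:57194132-57194431 (minus strand) for Tnfsf14.
Ltb: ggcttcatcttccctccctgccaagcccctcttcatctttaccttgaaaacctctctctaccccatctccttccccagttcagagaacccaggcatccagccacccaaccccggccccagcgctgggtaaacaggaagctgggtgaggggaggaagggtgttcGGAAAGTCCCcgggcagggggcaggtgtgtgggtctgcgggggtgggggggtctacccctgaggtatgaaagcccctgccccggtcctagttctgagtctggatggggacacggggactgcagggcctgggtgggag
Tnf: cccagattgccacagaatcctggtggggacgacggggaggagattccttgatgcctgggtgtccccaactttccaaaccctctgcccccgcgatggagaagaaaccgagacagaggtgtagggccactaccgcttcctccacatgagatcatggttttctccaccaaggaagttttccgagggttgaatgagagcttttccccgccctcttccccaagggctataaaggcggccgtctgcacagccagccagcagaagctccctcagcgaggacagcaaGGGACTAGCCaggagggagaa
Tnfsf14: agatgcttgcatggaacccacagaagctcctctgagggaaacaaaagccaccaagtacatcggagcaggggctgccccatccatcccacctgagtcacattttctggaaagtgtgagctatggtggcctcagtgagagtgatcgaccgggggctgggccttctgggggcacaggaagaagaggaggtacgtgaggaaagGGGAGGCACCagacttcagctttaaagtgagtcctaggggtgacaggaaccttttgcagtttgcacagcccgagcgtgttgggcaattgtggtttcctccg

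The kB motif searched was GGGA, any 4 bases and CC, on both strands, and 20.7% of 32851 RefSeq promoters of the same length held it. The Ltb match, on the opposite strand, starts 87 bases before the RefSeq start, which lies 68 bases downstream of the start in the deposited table, so that the match is 19 bases before the start in that table. The Tnfsf14 match starts 51 bases before the RefSeq start, which lies 8 bases downstream of the start in the deposited table. The Tnf match begins at base 30 of the transcript, and here both starts are the same. An interferon-response motif, GAAA, any 2 bases and GAAA, occurred in 3.44% of all promoters and in those of Tnfsf13b and Tnfrsf1b. An AP-1 motif, TGANTCA, occurred in 7.81% of all promoters and in those of Tnfsf14 and Tnfsf13b; Tnfsf13b has 2 overlapping entries. No searched motif overlapped another in these windows, the windows of Tnfsf10 and Tnfrsf1a held none of the 3, and all 7 genes had an entry. A match describes letters and is no measure of binding.

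Expression was deposited as RPKM, reads scaled by transcript length and by the total of the library, which allows levels of different genes to be compared per length. The totals to which the libraries were scaled lay between 13765529 and 15514505 reads, as recovered from the steps of the RPKM values. Whether these totals count only reads on genes is not known. By the mean RPKM over the 10 libraries, Ltb was highest at 260 ± 41.1 and Tnfrsf1a next at 152 ± 8.58 (SD, n = 10). Tnfrsf1b averaged 73.8 ± 9.65 RPKM and Tnfsf14 66.8 ± 8.35 RPKM. These neighbours in the order overlapped, Tnfrsf1b being higher in 9 of 10 libraries. Tnf averaged 7.85 ± 2.69 RPKM and Tnfsf13b 6.92 ± 0.850 RPKM, and Tnf was the higher of them in 6 of 10 libraries. Tnfsf10 stood far below, at 0.0858 ± 0.0460 RPKM. Among the 8039 genes that reached 1 RPKM in at least 2 libraries, Ltb ranked 144 and Tnfrsf1a 247 by mean RPKM, Tnfrsf1b 494, Tnfsf14 551, Tnf 3132 and Tnfsf13b 3398. Of the members, 6 were tested among these 8039 genes, and Tnfsf10 was below the minimum in every library.

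**Figure D1:**
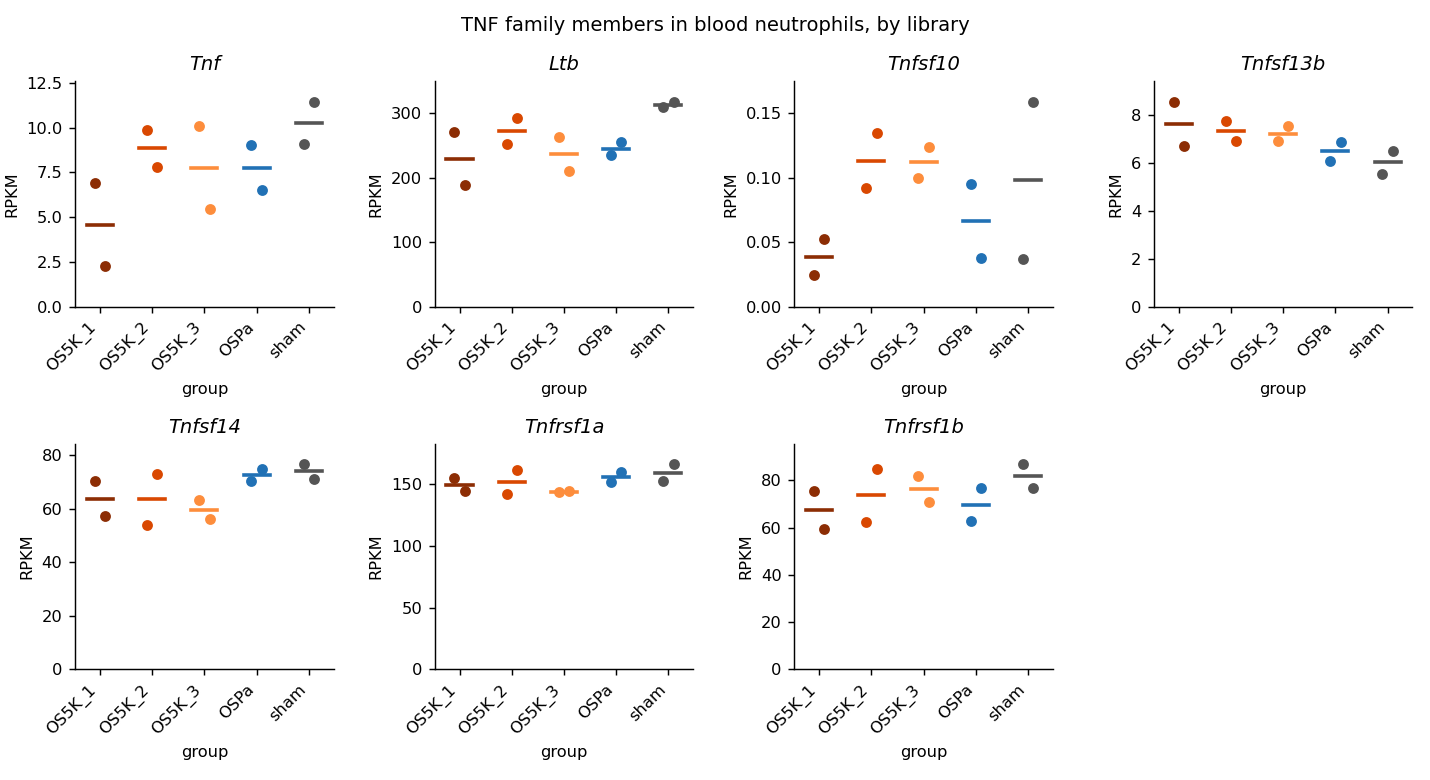
RPKM of the 7 members, 1 panel a gene with its own axis from 0, for the 5 groups; each point is 1 library and each horizontal line the mean of the group's 2 libraries. The 2 sham libraries of Ltb, at 309 and 318 RPKM, lie above the other 8, and Tnf is lowest in OS5K #1 replicate 2, at 2.25 RPKM.

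Log2 fold changes are of RPKM + 1, from limma with all 10 libraries in 1 fit, and p-values were adjusted over all 8039 genes by the Benjamini-Hochberg method. No member had an adjusted p under 0.05 in any of the 5 comparisons. The share of all tested genes called at that threshold by limma was 0.348% for OS5K against OSPa, 0% for OSPa against sham, 0% for OS5K against sham, 0.0124% among the 5 groups and 0% among the 3 OS5K lines. At an unadjusted p under 0.05, the shares were 7.89%, 5.97%, 10.4%, 8.53% and 6.66% of genes in the same order. A count-based fit with limma-voom on recovered reads called 16 genes for OS5K against OSPa, 4 among the 5 groups and 0 in the other 3 comparisons. OS5K and OSPa are both set against the same sham libraries, and OSPa enters both tumour comparisons, so these comparisons are not independent. At an unadjusted p under 0.05, 1 of 6 members was lower in OS5K than in sham, against 4.94% of all tested genes, and 0 were higher, against 5.49%. No member passed that level in OSPa against sham, where 1.7% of all genes were higher and 4.27% lower, or in OS5K against OSPa, where 5.97% were higher and 1.92% lower.

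The libraries also carried RNA of other blood cells. Red-cell markers summed to 44934 to 121655 RPKM in OS5K, 20812 to 27915 RPKM in OSPa and 52711 to 61177 RPKM in sham, and take a share of the total to which RPKM is scaled. Platelet markers summed to 708 to 1944 RPKM in OS5K, 548 to 971 RPKM in OSPa and 282 to 889 RPKM in sham. The highest were OS5K #1 replicate 2, OS5K #2 replicate 1 and OS5K #3 replicate 2, at 1322, 1944 and 1872 RPKM. Genes of immature neutrophils summed to 356 to 1158 RPKM in OS5K, 1020 to 1116 RPKM in OSPa and 703 to 1040 RPKM in sham. The same libraries were the lowest there, at 550, 399 and 356 RPKM. Dendritic-cell markers summed to 44.4 to 114 RPKM in OS5K, 57.8 to 58.7 RPKM in OSPa and 68.2 to 123 RPKM in sham. Of these 13 genes 5 reached the minimum for testing, namely H2-Aa, H2-Ab1, H2-Eb1, Bst2 and Itgax. The other 8, among them Flt3, Zbtb46, Xcr1 and Clec9a, stayed below 1 RPKM in every library. The libraries with the highest platelet sums were also the lowest in Tnfsf14, at 57.4, 54.1 and 56.2 RPKM. Ltb and Tnf were lowest in OS5K #1 replicate 2 and OS5K #3 replicate 2, while OS5K #2 replicate 1 had 252 and 9.90 RPKM. The part of these cells and of neutrophil maturity in the values of the members was not tested.

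Ltb encodes lymphotoxin beta, which forms a membrane trimer with lymphotoxin alpha and signals through the receptor encoded by Ltbr. Ltb had 270 and 189 RPKM with OS5K #1, 252 and 293 RPKM with OS5K #2, 263 and 211 RPKM with OS5K #3, 235 and 255 RPKM with OSPa, and 309 and 318 RPKM in sham. Both sham libraries were thus higher than each of the 8 tumour libraries, while OS5K and OSPa overlapped. The share of all tested genes with that pattern over the 8 libraries was not counted. In the comparison of OS5K with sham, 5.17% of all tested genes had every OS5K library below both sham libraries, and Ltb was the only member that did. Mean Ltb was 247 ± 39.1 RPKM in OS5K (n = 6), 245 ± 13.7 RPKM in OSPa and 314 ± 6.51 RPKM in sham (n = 2 each, SD). The log2 fold change for OS5K against sham was -0.36 (SE 0.15, 95% limits -0.70 and -0.02), a fold of 0.778, with an limma unadjusted p of 0.0385 and an adjusted p of 0.454. For OSPa against sham it was -0.36 (SE 0.18, 95% limits -0.77 and 0.06, limma adjusted p = 0.815). For OS5K against OSPa it was -0.0068 (SE 0.15, 95% limits -0.35 and 0.33, limma adjusted p = 0.999), and it was 0.018 after quantile normalization. These limits span differences close in size to the one against sham.

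Lymphocytes express Ltb as well, and in bulk libraries fewer cells of a type and less RNA per cell cannot be told apart. The B-cell marker list of 15 genes had 13 tested, of which 12 were lower in OS5K than in sham and 13 lower in OSPa than in sham, none called by limma. Its summed level was 88.4 to 246 RPKM in OS5K, 140 to 170 RPKM in OSPa and 159 to 309 RPKM in sham. Cd79a and Cd79b, parts of the B-cell receptor, ranged from 8.36 to 27.2 RPKM and from 6.13 to 21.2 RPKM over the 10 libraries. The T and NK marker list of 17 genes had 5 tested, of which 4 were lower in OS5K than in sham and 4 lower in OSPa than in sham. It summed to 19.6 to 31.0 RPKM in OS5K, 20.4 to 23.3 RPKM in OSPa and 23.9 to 32.0 RPKM in sham. Its tested genes were Cd3d, Nkg7, Klrd1, Ncr1 and Gzma. The T-cell gene Cd3d, the highest of the list, had 15.2 to 22.3 RPKM in OS5K, 13.7 to 15.7 RPKM in OSPa and 14.0 to 15.0 RPKM in sham. Every OS5K library thus lay above both sham libraries for Cd3d, as for 6.66% of all tested genes. Among the T-cell genes, Cd3e, Cd4, Cd8a, Thy1, Il7r and Bcl11b had a median of 0. Cd3d had 13.7 to 22.3 RPKM over the 10 libraries, Lat 0.174 to 1.01 RPKM, Lck 0.0911 to 0.471 RPKM and Cd3g 0.0851 to 0.395 RPKM, all above 0 in every library. The neutrophil calprotectin gene S100a9 stood at 38018 to 46971 RPKM and Ly6g, used in the sort, at 52.7 to 101 RPKM. The part of B, T and NK cells in the Ltb values was not tested.

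Tnf encodes TNF itself. It had 6.91 and 2.25 RPKM with OS5K #1, 9.90 and 7.79 RPKM with OS5K #2, 10.1 and 5.45 RPKM with OS5K #3, 9.03 and 6.51 RPKM with OSPa, and 9.10 and 11.5 RPKM in sham. OS5K #1 replicate 2 was lowest and sham replicate 2 highest, and OS5K overlapped both other groups. These values rest on 53 to 269 reads a library. The mean was 7.06 ± 2.95 RPKM in OS5K (n = 6), 7.77 ± 1.78 RPKM in OSPa and 10.3 ± 1.67 RPKM in sham (n = 2 each, SD). The log2 fold change was -0.58 for OS5K against sham (SE 0.32, 95% limits -1.30 and 0.14, limma adjusted p = 0.554) and -0.37 for OSPa against sham (SE 0.39, 95% limits -1.25 and 0.51, limma adjusted p = 0.852). For OS5K against OSPa it was -0.21 (SE 0.32, 95% limits -0.93 and 0.51, limma adjusted p = 0.987), and without OS5K #1 replicate 2 it was 0.00087.

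Tnf varied most within groups of the 6 tested members. The SD of its log2 values within groups was 0.51, larger than that of 97.3% of tested genes, whose median was 0.17. The highest library was 5.09 times the lowest. Among the 3 OS5K lines the Tnf means were 4.58 ± 3.29, 8.84 ± 1.49 and 7.77 ± 3.28 RPKM for OS5K #1, #2 and #3 (SD, n = 2 each), with an limma unadjusted p of 0.0862 and an adjusted p of 0.761.

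Tnfsf14 encodes LIGHT, which binds the receptors encoded by Ltbr and Tnfrsf14. It had 70.4 and 57.4 RPKM with OS5K #1, 54.1 and 73.2 RPKM with OS5K #2, 63.2 and 56.2 RPKM with OS5K #3, 70.6 and 74.9 RPKM with OSPa, and 76.7 and 71.4 RPKM in sham. Of the 6 OS5K libraries, 5 lay below every OSPa and sham library, OS5K #1 replicate 1 by the smallest margin, and OS5K #2 replicate 2 lay among them. The mean was 62.4 ± 7.91 RPKM in OS5K (n = 6), 72.7 ± 3.05 RPKM in OSPa and 74.0 ± 3.77 RPKM in sham (n = 2 each, SD). The log2 fold change was -0.23 for OS5K against OSPa (SE 0.14, 95% limits -0.53 and 0.08, limma adjusted p = 0.825) and -0.25 for OS5K against sham (SE 0.14, 95% limits -0.56 and 0.05, limma adjusted p = 0.550). For OSPa against sham it was -0.03 (SE 0.17, 95% limits -0.40 and 0.35, limma adjusted p = 0.978), and 0.03 after median centring.

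Tnfsf13b encodes BAFF, a survival factor for B cells. It was the member whose OS5K values stood above sham. It had 8.54 and 6.71 RPKM with OS5K #1, 7.72 and 6.89 RPKM with OS5K #2, 6.91 and 7.51 RPKM with OS5K #3, 6.09 and 6.86 RPKM with OSPa, and 5.52 and 6.50 RPKM in sham. All 6 OS5K libraries were above both sham libraries, a pattern that 6.66% of all tested genes had in this direction, and OS5K overlapped OSPa. The mean was 7.38 ± 0.692 RPKM in OS5K (n = 6), 6.47 ± 0.545 RPKM in OSPa and 6.01 ± 0.693 RPKM in sham (n = 2 each, SD). The log2 fold change was 0.26 for OS5K against sham (SE 0.12, 95% limits -0.01 and 0.53), with an limma unadjusted p of 0.0586 and an adjusted p of 0.496. For OS5K against OSPa it was 0.16 (SE 0.12, 95% limits -0.11 and 0.43, limma adjusted p = 0.884), and for OSPa against sham 0.09 (SE 0.15, 95% limits -0.24 and 0.42, limma adjusted p = 0.898).

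Monocytes are another known source of BAFF. Of 20 monocyte markers, 19 were found and 17 tested. Of these 17, 10 were higher in OS5K than in sham, none called by limma, and 15 were lower in OSPa than in sham, none called. At an unadjusted limma p under 0.05, 5 of 17 were higher in OS5K than in sham, against 5.49% of all tested genes. At that level 0 were lower, against 4.94%. In OS5K against OSPa 17 of 17 were higher, 3 of them called by limma. Their summed level was 2277 to 3219 RPKM in OS5K, 1958 to 2290 RPKM in OSPa and 1919 to 2191 RPKM in sham. Most of it was Lyz2, a lysozyme gene that neutrophils also express, with 1922 to 2933 RPKM in OS5K, 1725 to 2026 RPKM in OSPa and 1603 to 1872 RPKM in sham. The other 18 genes summed to 260 to 371 RPKM in OS5K, 233 to 264 RPKM in OSPa and 315 to 319 RPKM in sham. Csf1r, Cd68, Ctss and Ly6c2 had the highest medians of these 18, so the sum says little about the markers of low level. Csf1r, the receptor gene for the monocyte growth factor, had 80.6 to 108 RPKM in OS5K, 86.8 to 103 RPKM in OSPa and 89.7 to 112 RPKM in sham. Ly6c2 had 25.7 to 35.4 RPKM in OS5K, 29.0 to 29.2 RPKM in OSPa and 31.3 to 40.3 RPKM in sham. Ccr2, a chemokine receptor of classical monocytes, had 2.48 to 12.1 RPKM in OS5K, 0.345 to 0.574 RPKM in OSPa and 0.599 to 1.52 RPKM in sham. Ms4a4a had 5.37 to 19.7 RPKM in OS5K, 0.0798 to 0.687 RPKM in OSPa and 1.34 to 2.39 RPKM in sham. Ms4a6c had 3.19 to 10.1, 0.390 to 0.841 and 1.02 to 2.30 RPKM in the same order, and F13a1 9.88 to 27.0, 3.22 to 7.37 and 2.32 to 5.49 RPKM. The part of monocytes in the Tnfsf13b values was not tested.

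Tnfsf10 encodes TRAIL, which can trigger death of tumour cells through death receptors. It was close to the limit of detection, with 2 and 4 reads with OS5K #1, 7 and 11 with OS5K #2, 8 and 9 with OS5K #3, 7 and 3 with OSPa, and 3 and 12 in sham. These 66 reads in all correspond to 0.0249 to 0.135 RPKM in OS5K, 0.0380 and 0.0955 RPKM in OSPa, and 0.0368 and 0.159 RPKM in sham. The groups overlapped, and no difference was detectable at this depth. Tnfrsf10b, the gene of the mouse death receptor for TRAIL, had a median of 0.0480 RPKM.

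The receptor genes varied less than Tnf. Tnfrsf1a had 155 and 144 RPKM with OS5K #1, 142 and 161 RPKM with OS5K #2, 143 and 144 RPKM with OS5K #3, 152 and 160 RPKM with OSPa, and 152 and 166 RPKM in sham. OS5K overlapped OSPa and sham, and the limma adjusted p among the 3 OS5K lines was 0.934. The mean was 148 ± 7.99 RPKM in OS5K (n = 6), 156 ± 5.69 RPKM in OSPa and 159 ± 9.75 RPKM in sham (n = 2 each, SD). Its within-group SD of 0.08 on the log2 scale was larger than that of 8.63% of tested genes. The log2 fold change was -0.07 for OS5K against OSPa (SE 0.10, 95% limits -0.29 and 0.15, limma adjusted p = 0.978) and -0.10 for OS5K against sham (SE 0.10, 95% limits -0.32 and 0.12, limma adjusted p = 0.724). For OSPa against sham it was -0.03 (SE 0.12, 95% limits -0.30 and 0.24, limma adjusted p = 0.959), and 0.03 after median centring.

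Tnfrsf1b had 75.7 and 59.5 RPKM with OS5K #1, 62.5 and 84.8 RPKM with OS5K #2, 81.9 and 70.7 RPKM with OS5K #3, 62.9 and 76.6 RPKM with OSPa, and 86.9 and 76.8 RPKM in sham. Libraries of one line differed as much as groups did, with OS5K #2 holding both a low and a high value. The mean was 72.5 ± 10.2 RPKM in OS5K (n = 6), 69.7 ± 9.72 RPKM in OSPa and 81.8 ± 7.11 RPKM in sham (n = 2 each, SD). The log2 fold change was 0.05 for OS5K against OSPa (SE 0.15, 95% limits -0.30 and 0.40, limma adjusted p = 0.999), -0.18 for OS5K against sham (SE 0.15, 95% limits -0.53 and 0.16, limma adjusted p = 0.700) and -0.23 for OSPa against sham (SE 0.19, 95% limits -0.66 and 0.19, limma adjusted p = 0.837). Tnfrsf1a was the more abundant TNF receptor in every library, with a ratio to Tnfrsf1b of 1.75 to 2.42 in OS5K, 2.09 and 2.42 in OSPa, and 1.75 and 2.16 in sham.

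**Figure D2:**
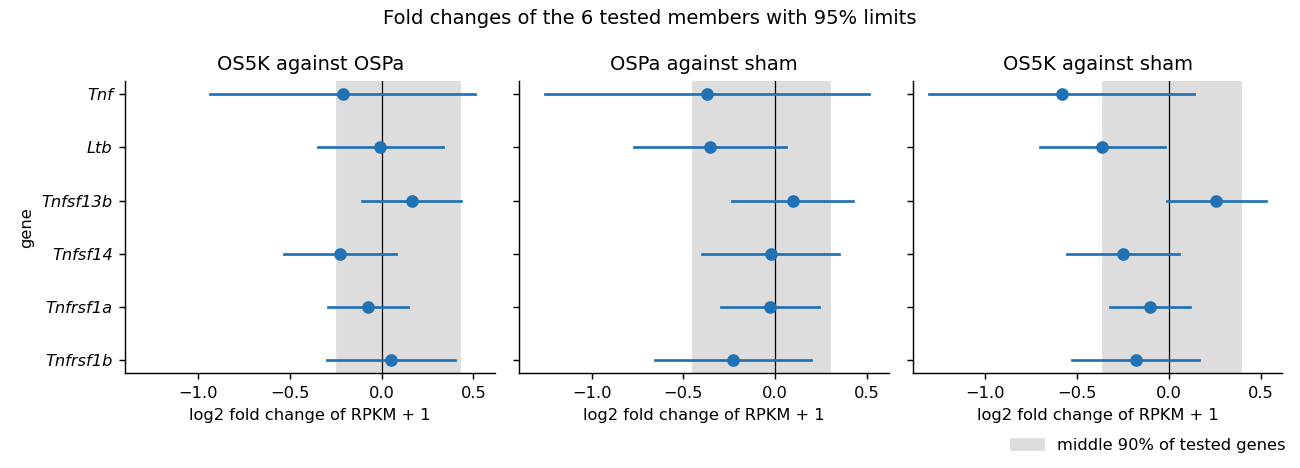
Log2 fold change of RPKM + 1 for the 6 tested members in 3 comparisons, with points for the estimate and bars for 95% limits; the grey band holds the middle 90% of all tested genes. The bars of 17 of 18 estimates cross 0, the exception being Ltb in OS5K against sham (-0.70 to -0.02).

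Set beside all genes, 4 of 6 tested members were lower in OS5K than in OSPa, as were 45.4% of all tested genes, and their median log2 fold changes were -0.04 and 0.02. This count was 2 of 6 without OS5K #1 replicate 2 (median 0.04) and 3 of 6 without OSPa replicate 2 (median 0.0070), OS5K #2 replicate 1 or OS5K #3 replicate 2, and after quantile normalization. In OSPa against sham 5 of 6 members and 58.7% of all genes were lower, with medians of -0.13 and -0.04. The libraries of Ltb, Tnf and Tnfrsf1b did not overlap there, with both OSPa libraries below both sham libraries, as for 22.2% of all tested genes, and no member had both above, as 12.4% did. No member had every OS5K library above both OSPa libraries, as 5.45% of all tested genes did, or every one below them, as 2.9% did. In OS5K against sham 5 of 6 members and 54.5% of all genes were lower, with medians of -0.22 and -0.02. In OSPa against sham 3 of 6 members were lower after median centring and without OSPa replicate 1. Among the 5 groups the limma adjusted p ranged from 0.663 for Tnf to 0.900 for Tnfrsf1a. Among the 3 OS5K lines it ranged from 0.761 for Tnf to 0.965 for Tnfsf13b.

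Several members varied together across the 10 libraries. Of the 15 pairs of tested members, 3 had a Pearson correlation with an adjusted permutation p under 0.05, and none had such a Spearman correlation. The share of all gene pairs with correlations of this size was not counted, so the count of 3 is not a result about this family. The permutations shuffled all 10 libraries freely, so their p-values make no allowance for the 5 groups. Ltb and Tnfrsf1b had r = 0.77 (permutation p = 0.00925, adjusted 0.0462) and rho = 0.83 (permutation p = 0.00475, adjusted 0.0712). The value of r was 0.72 without the 2 libraries farthest from the median of Ltb, and 0.81 for deviations from group means. Tnfsf14 and Tnfrsf1a had r = 0.82 (permutation p = 0.00558, adjusted 0.0418) and rho = 0.76 (permutation p = 0.0149, adjusted 0.0996), with r = 0.72 without 2 libraries and 0.71 within groups. The neighbours Tnf and Ltb had r = 0.79 (permutation p = 0.00488, adjusted 0.0418) and rho = 0.64 (permutation p = 0.0531, adjusted 0.129). Their r was 0.29 without OS5K #1 replicate 2 and OS5K #3 replicate 2, so this relation rests on those libraries. The r within groups, 0.76, includes the same libraries. With 2 libraries a group the deviations mirror each other, so each r within groups rests on 1 difference for each of the 5 groups. The ratio of Ltb to Tnf was 25.5 to 84.0 in OS5K, 26.1 and 39.1 in OSPa, and 27.8 and 34.0 in sham, with OS5K #1 replicate 2 the highest.

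**Figure D3:**
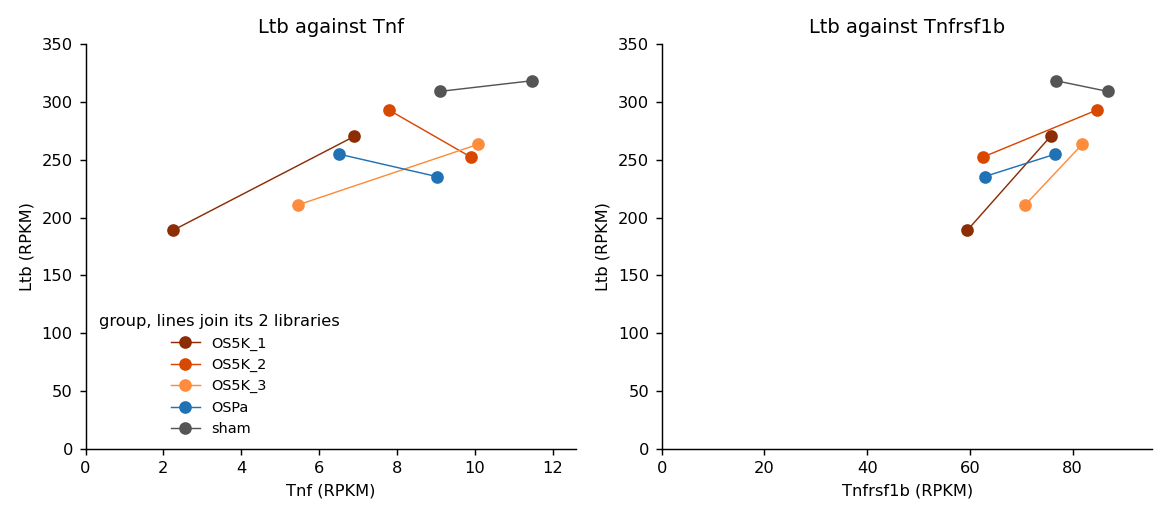
Ltb against Tnf and against Tnfrsf1b, in RPKM on axes from 0; each point is 1 library, coloured by group, and a line joins the 2 libraries of a group. OS5K #1 replicate 2 is at the lower left of both plots, with 189 RPKM of Ltb, and the 2 sham libraries are at the top.

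The genes whose log2 levels followed each member most closely were sought among 3879 genes with a mean of at least 5 RPKM, over the 10 libraries, and are given as a description. Ltb was followed by Haao (r = 0.962), an enzyme of the kynurenine pathway, and Lst1 (r = 0.956), a leukocyte transcript whose gene lies 5999 bases from Ltb. Tnf was followed by Fbxo38 (r = 0.936) and Abhd15 (r = 0.909). Tnfsf14 was followed by Prelid1 (r = 0.910) and Vsig10l (r = 0.907), and Tnfsf13b by the kinase gene Sgk1 (r = 0.880) and Serinc3 (r = 0.861). Tnfrsf1a was followed by Tnfaip2 (r = 0.861), a gene known to be induced by TNF, and Pstpip2 (r = 0.851). Tnfrsf1b was followed by Dctn3 (r = 0.962), a dynactin subunit gene, and Eif2b2 (r = 0.959).

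The rest of the family was mostly silent on the ligand side. None of 13 other ligand genes reached the minimum for testing, the highest being Lta, the partner of Ltb, with a median of 0.502 RPKM and a range of 0.201 to 0.747. Tnfsf8 was listed at 0 in every library. Of 26 other receptor genes 10 were tested, led by the death receptor gene Fas (median 65.0 RPKM), Relt (52.0 RPKM) and the lymphotoxin receptor gene Ltbr (30.2 RPKM). No receptor of the 10 was called by limma. They were lower in 7 of 10 cases in OS5K against OSPa, 9 of 10 in OSPa against sham and 8 of 10 in OS5K against sham. Their median log2 fold changes were -0.03, -0.11 and -0.15, beside 0.02, -0.04 and -0.02 over all tested genes. Single libraries turned these counts: in OS5K against OSPa 3 of 10 were lower without OS5K #1 replicate 2 (median 0.03) and 4 of 10 without OSPa replicate 2 (median 0.13), OS5K #2 replicate 1 (0.01) or OS5K #3 replicate 2 (0.02). In OSPa against sham 5 of 10 were lower without sham replicate 1 (median 0.0096) or OSPa replicate 2 (median -0.08). Tnfrsf13c, the BAFF receptor gene of B cells, averaged 1.43 ± 0.627 RPKM in OS5K, 1.90 ± 0.338 RPKM in OSPa and 2.07 ± 0.464 RPKM in sham (limma adjusted p = 0.405 for OS5K against sham). Tnfrsf21, the gene of death receptor DR6, averaged 16.3 ± 1.88 RPKM in OS5K and 13.8 ± 1.38 RPKM in OSPa (limma adjusted p = 0.708). Tnfrsf14, the LIGHT receptor gene, averaged 4.80 ± 3.25 RPKM in OSPa and 6.75 ± 1.86 RPKM in sham (limma adjusted p = 0.829). Tnfrsf13b, the gene of the BAFF-binding receptor TACI, averaged 1.65 ± 0.431 RPKM in OSPa and 2.46 ± 1.35 RPKM in sham (limma adjusted p = 0.831).

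**Figure D4:**
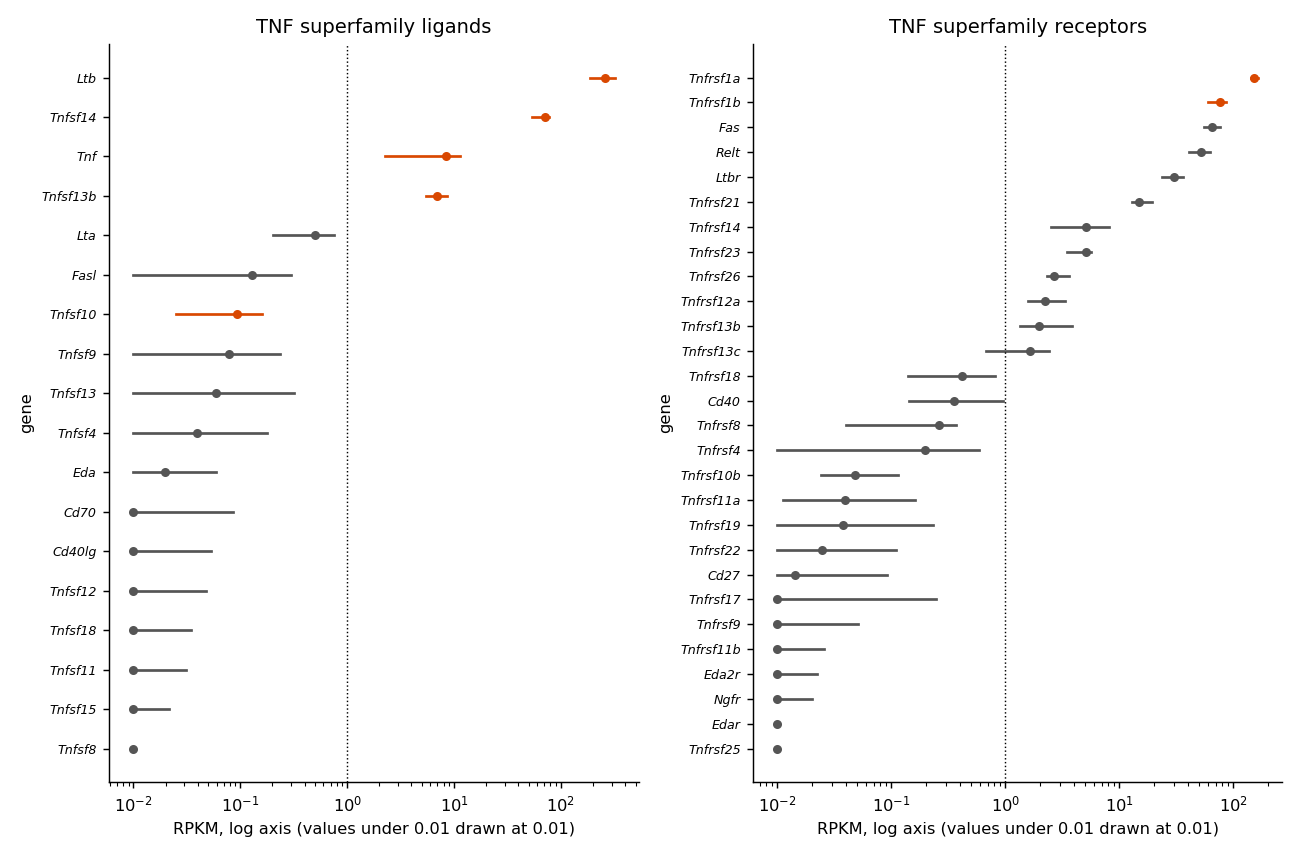
RPKM of TNF superfamily ligand and receptor genes over the 10 libraries on a log axis, 1 row a gene, with values under 0.01 drawn at 0.01; each point is the median, each line the range from the lowest to the highest library, the 7 members are in orange and the dotted line marks 1 RPKM. Ltb, Tnfsf14, Tnf and Tnfsf13b are the ligands to the right of the line, and Lta, the next, reaches 0.747 RPKM.

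Downstream of the receptors, 26 of 30 genes of the signalling complexes were tested and none was called by limma in the 3 comparisons. Of the 26, 15 were lower in OS5K than in OSPa, 19 lower in OSPa than in sham and 18 lower in OS5K than in sham. Their median log2 fold changes were -0.02, -0.06 and -0.07. Over all tested genes 45.4%, 58.7% and 54.5% were lower in the same order, with medians of 0.02, -0.04 and -0.02. Without OSPa replicate 2, 11 of 26 were lower in OS5K than in OSPa (median 0.03). In OSPa against sham 14 of 26 were lower after quantile normalization and 15 of 26 after median centring (medians -0.015 and -0.0065). Ripk1, the kinase of the TNFR1 complex, averaged 7.32 ± 0.298 RPKM in OS5K, 8.41 ± 0.388 RPKM in OSPa and 8.94 ± 0.866 RPKM in sham (limma adjusted p = 0.773 for OS5K against OSPa and 0.407 for OS5K against sham). Rnf31, a subunit of the linear ubiquitin ligase, averaged 16.7 ± 2.45 RPKM in OS5K and 23.0 ± 0.890 RPKM in sham (limma adjusted p = 0.364). Otulin, which removes linear ubiquitin, averaged 9.53 ± 1.75 RPKM in OS5K and 8.23 ± 0.00397 RPKM in OSPa (limma adjusted p = 0.844). Casp8, the caspase recruited by death domains, averaged 7.72 ± 0.493 RPKM in OSPa and 10.6 ± 1.54 RPKM in sham, and Tank 3.74 ± 0.853 RPKM in OSPa and 2.60 ± 0.534 RPKM in sham (limma adjusted p = 0.800 for each).

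Of 10 genes that act on TNF itself, by shedding the protein or by binding its mRNA, 8 were tested. None was called by limma, and 7 were lower in OS5K than in OSPa, 4 lower in OSPa than in sham and 5 lower in OS5K than in sham. Their median log2 fold changes were -0.07, 0.07 and -0.06, beside 0.02, -0.04 and -0.02 over all tested genes. In OS5K against sham 4 of 8 were lower after median centring and without OS5K #1 replicate 1 or OS5K #3 replicate 1. Adam17, the gene of the TNF sheddase, had a median of 30.9 RPKM. Zfp36, whose protein tristetraprolin promotes decay of Tnf mRNA, averaged 394 ± 76.5 RPKM in OS5K, 396 ± 24.0 RPKM in OSPa and 524 ± 126 RPKM in sham (limma adjusted p = 0.537 for OS5K against sham and 0.829 for OSPa against sham). Its relative Zfp36l1 averaged 13.5 ± 3.23 RPKM in OS5K, 19.8 ± 2.85 RPKM in OSPa and 13.3 ± 0.105 RPKM in sham (limma adjusted p = 0.427 for OS5K against OSPa and 0.800 for OSPa against sham). Rhbdf2, which carries ADAM17 to the surface, averaged 29.1 ± 4.01 RPKM in OS5K, 32.0 ± 7.65 RPKM in OSPa and 34.4 ± 5.50 RPKM in sham (limma adjusted p = 0.978 for OS5K against OSPa and 0.653 for OS5K against sham).

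Genes of a mixed NF-kB list were lower in the tumour groups than in sham in most cases, though none passed the adjusted threshold in limma. The list holds pathway components such as Rela and Rel beside response genes, so it is no measure of NF-kB output. Of 27 genes, 26 were tested. In OS5K against sham 26 of 26 were lower, with a median log2 fold change of -0.39 beside -0.02 over all tested genes, and 13 had an unadjusted p under 0.05 against 4.94% of all tested genes in that direction. In OSPa against sham 24 of 26 were lower, with a median of -0.30 beside -0.04 over all tested genes, and 8 had an unadjusted p under 0.05 against 4.27% of all genes. In OS5K against OSPa 15 of 26 were lower, with a median of -0.05, while without OSPa replicate 2 it was 12 of 26 with a median of 0.02, and without OS5K #2 replicate 1 13 of 26 with a median of -0.0023. Sham replicate 2 was the highest library for 12 of the 26 genes. Without it, 22 of 26 were lower in OS5K than in sham, with a median of -0.23 beside -0.065 over all tested genes. The same omission left 23 of 26 lower in OSPa than in sham, with a median of -0.20 beside -0.099 over all tested genes. Without sham replicate 1, 26 of 26 were lower in OS5K than in sham, with a median of -0.50 beside 0.027. Counts without a library were added after seeing the data. The list itself was chosen with earlier results of these data known. Its genes were all set against the same 2 sham libraries. The counts beside the shares of all genes are thus a description and not separate pieces of support. B-cell markers were also mostly lower in both tumour groups than in sham, as were 4 of 5 tested T and NK markers, with the values given above. The T-cell gene Cd3d was higher in every OS5K library than in both sham libraries. In OSPa against sham 15 of 17 tested monocyte markers and 5 of 5 tested dendritic-cell markers were lower. In OS5K against sham 7 of 17 and 4 of 5 were lower. The 5 dendritic-cell genes are those named above, without Flt3, Xcr1 or Clec9a, so their counts are no measure of dendritic cells alone. Platelet markers went the other way, with 12 of 12 higher in each of these comparisons. The part of these cells in the NF-kB genes was not tested.

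Relb, the NF-kB subunit of the pathway that lymphotoxin and BAFF activate, averaged 6.41 ± 0.936 RPKM in OS5K (n = 6), 7.18 ± 1.01 RPKM in OSPa and 10.3 ± 1.32 RPKM in sham (n = 2 each, SD). Its log2 fold change for OS5K against sham was -0.61 (SE 0.13, limma adjusted p = 0.170). Tnip2, a partner of the deubiquitinase A20, averaged 12.3 ± 1.38 RPKM in OS5K and 16.4 ± 1.30 RPKM in sham (limma adjusted p = 0.252). Icam1, an adhesion molecule gene, averaged 4.42 ± 0.712 RPKM in OSPa and 9.42 ± 4.16 RPKM in sham (limma adjusted p = 0.749). Nfkb1 averaged 9.62 ± 0.869 RPKM in OS5K and 11.3 ± 0.0757 RPKM in OSPa (limma adjusted p = 0.614). Bcl2a1d, one of several near-identical Bcl2a1 copies and therefore uncertain in its counts, averaged 3.05 ± 1.92 RPKM in OS5K, 0.945 ± 0.631 RPKM in OSPa and 3.30 ± 1.39 RPKM in sham (limma adjusted p = 0.331 for OS5K against OSPa and 0.708 for OSPa against sham).

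**Figure D5:**
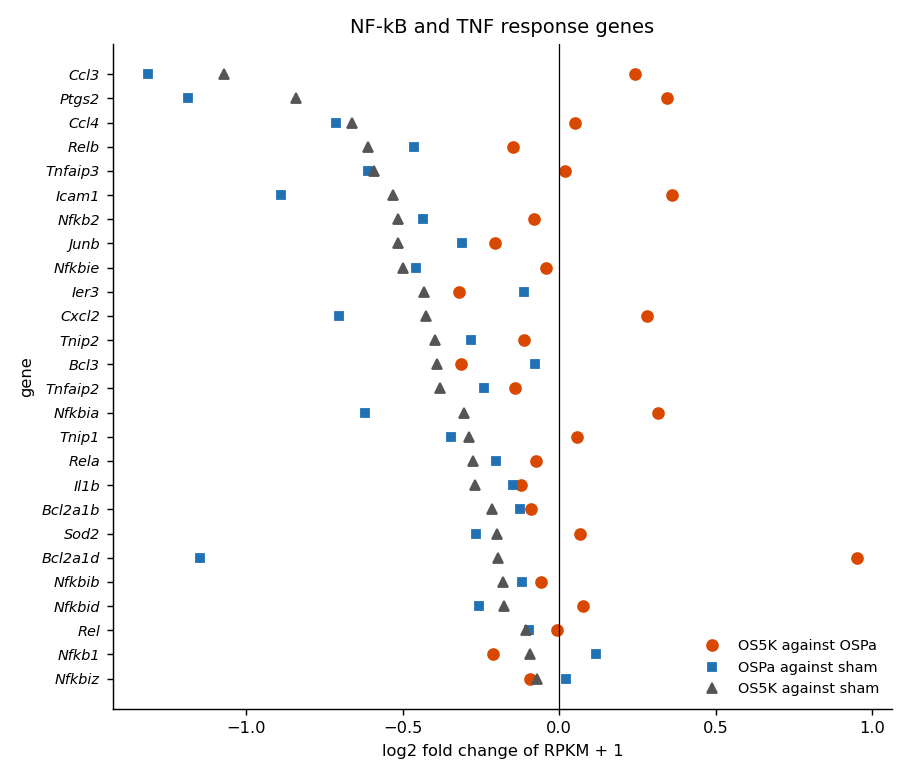
Log2 fold change of RPKM + 1 for 26 NF-kB pathway and response genes, 1 row a gene, in OS5K against OSPa (circles), OSPa against sham (squares) and OS5K against sham (triangles). All 26 triangles and 24 of 26 squares lie left of 0, while the circles lie on both sides (15 of 26 left).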

How the data were processed

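Blood neutrophil RNA was sequenced in 10 libraries, 2 in each of 5 groups, from poly(A) RNA extracted with RNeasy and made into libraries with SMART-Seq v4 and Ion Xpress Plus kits, per the labels' protocols. The authors deposited RPKM per gene with mm10 coordinates, per the file headers and the submitters' processing notes; for the aligner and counter, names were not given in the sources used here. Reads were recovered from the RPKM steps with GENCODE M21 exon lengths. Of values up to 20 reads, 89.2% to 90.3% per library were whole within 0.02 reads. Tnfsf14 has another model in GENCODE, so its reads are not given. Intervals cover the spread between libraries.

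Genes with at least 1 RPKM in 2 libraries were tested with limma 3.58.1 in R 4.3.3 (trend and robust) on log2(RPKM + 1), a scale that understates changes of low genes. The fit had 5 group means and 5 residual degrees of freedom. Figures and tables used Python 3.11.15. The fit was tested on simulated data. Correlations used 100000 permutations, two-sided. Other settings were median centring, quantile normalization, the replicate number as a block, other pseudocounts (0.1 and 5) and filters, neither trend nor robust fit, only the groups compared, leaving out each library, and limma-voom on recovered reads, chosen after seeing the data, as were the list counts under each setting.

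Genes named were the 7 members, the 2 genes most like each tested member (Pearson, mean of at least 5 RPKM, no provisional symbols), and in each pathway list the called genes or else the 2 of smallest p in each of 3 comparisons. Genes named only for their level or role, Lta, Tnfsf8, Tnfrsf10b, Fas, Relt, Ltbr, Adam17 and the markers, were chosen after their values were seen. The members and lists were chosen with earlier results of these data known. Marker lists of other blood cells and of immature neutrophils were summed.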

Additional observations from a re-analysis of the deposited data

How the results depend on the processing

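Over 20 alternative settings the 6 tested members gave no call in any comparison, the smallest limma adjusted p being 0.258, for Ltb in OS5K against sham without OS5K #1 replicate 1. Of 360 recomputed fold changes of members, 344 kept direction and 16 changed sign; the cause was not tested. The 234 recomputed F tests also gave no call. For OS5K against OSPa, Ltb was 0.018 after quantile normalization and ranged from -0.092 to 0.079 without 1 library (above 0 without OS5K #1 replicate 2, OS5K #2 replicate 1, OS5K #3 replicate 2 or OSPa replicate 2). In that comparison Tnf ranged from -0.43 to 0.00087 (above 0 without OS5K #1 replicate 2) and Tnfrsf1b from -0.090 to 0.19 (below 0 without OS5K #1 replicate 1, OS5K #2 replicate 2 or OSPa replicate 1). For OSPa against sham, Tnfsf13b ranged from -0.0070 to 0.20 without 1 library (below 0 without sham replicate 1). Tnfsf14 was 0.032 after median centring and ranged from -0.076 to 0.026 (above 0 without OSPa replicate 1 or sham replicate 1). Tnfrsf1a was 0.028 after median centring and ranged from -0.091 to 0.033 (above 0 without OSPa replicate 1 or sham replicate 2).

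Counts of called genes moved more. For OS5K against OSPa, 28 genes were called, all higher, against 15 with no filter (4 higher and 11 lower) and 16 with limma-voom, and 1 to 60 without 1 library: 1 and 5 without OSPa replicate 1 and 2 (the 1 was lower), 7 without either OS5K #3 library, 15 without either OS5K #2 library and 60 without OS5K #1 replicate 2 (56 higher and 4 lower). With no filter, 9 genes were called for OSPa against sham, 2 for OS5K against sham, 14 among the 5 groups and 7 among the 3 OS5K lines, against 0, 0, 1 and 0. Without 1 library these ranged from 0 to 3, 0 to 30 (30 without sham replicate 1), 0 to 13 and 0 to 0. Among the 5 groups the count was 0 with neither trend nor robust fit and 4 with limma-voom. Same-numbered libraries deviated together in 1 of 10 group pairs (correlations -0.38 to 0.45, 1 over 0.1), so the numbers were not taken as pairs. Others deviated in opposite directions, such as OS5K #2 with OS5K #1 (-0.33) and with OS5K #3 (-0.38). Libraries of different groups thus shared some variation, whatever their numbers. With the replicate block, 21, 0, 0, 0 and 0 genes were called in the 5 comparisons. Depth limits Tnfsf10, with 2 to 12 reads a library, and to a lesser degree Tnf, with 53 to 269. The 5-group test has no version on only the groups compared.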
